A study of Mus musculus with 6 samples.

Results

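The 47 genes described here encode, in the nucleus, subunits and assembly factors of the last enzymes of the mitochondrial respiratory chain. They comprise 10 genes of complex III, the cytochrome c gene Cycs, 18 genes of complex IV and 18 genes of the ATP synthase (complex V). They were taken by gene symbol from a fixed list, and all 47 had a row among the 23154 genes of the deposited table. No measured value entered that rule, but the list was chosen with earlier results of these data known. ATP synthase genes carry their older Atp5 symbols, so that Atp5a1 is the gene now called Atp5f1a. The 47 genes lie on 18 chromosomes.

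Messenger RNA was sequenced from RAW264.7, a macrophage-like cell line of the mouse. A first stable line carried the construct pINDUCER20b-HA-NUR77, from which doxycycline induces NUR77 with an HA tag, and it gave 3 NUR77 libraries. NUR77 is the nuclear receptor that the gene Nr4a1 encodes. A second stable line carried a doxycycline-inducible GFP construct and gave 3 GFP libraries as control. All 6 dishes were seeded 24 hours before doxycycline (1 µg/mL) was added, and were lysed 18 hours later. The labels name no inflammatory stimulus. Each construct is represented by 1 stable line, so the transgene cannot be told apart from other differences between the lines, and p-values measure only the spread between dishes of a line. No library without doxycycline was analysed here. The series title places the study in the control of macrophage inflammation through mitochondria.

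Complex III passes electrons from ubiquinol to cytochrome c, complex IV passes them from cytochrome c to oxygen, and the ATP synthase uses the proton gradient that these complexes build to make ATP. Each complex combines many nuclear-encoded subunits with a few subunits encoded by mitochondrial DNA, and dedicated assembly factors insert haem, copper and iron-sulphur clusters and join the parts. In macrophages the balance between respiration and glycolysis is known to shift with activation.

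Depth was 11199468 to 14354453 recovered reads per NUR77 library and 14350490 to 15929487 per GFP library. Levels are normalized reads, that is, reads per 10000000 reads counted on genes. Nr4a1 was at 288, 314 and 297 normalized reads in the NUR77 libraries, against 170.0, 148 and 161 in the GFP libraries (log2 fold change 0.90, limma adjusted p = 5.5e-08). The 8 macrophage markers summed to 26847 to 27652 normalized reads in NUR77 libraries and 37215 to 37345 in GFP libraries, and each had reads in every library. Of these markers 5 were called lower (28.3% over all tested genes), 1 higher (38.4%) and 2 not called, by the rule given below. Cd68 fell most (log2 fold change -1.45), and Itgam was the higher one (1.18). Markers of skeletal muscle summed to 387, 134 and 134 normalized reads in NUR77 libraries 1, 2 and 3, against 408 to 456 in GFP libraries, where Tnni2 held most of the sum. Fibroblast markers summed to 113, 41.8 and 29.4 in NUR77 libraries 1, 2 and 3, against 17.6 to 22.3 in GFP libraries, with Pdgfra at 0 throughout. Epithelial and lymphocyte markers summed to 3.14 or less in every library, with Krt8, Cdh1, Cd3e, Cd3g and Ms4a1 among those at 0. NUR77 replicate 1 thus held the most muscle and fibroblast marker reads of its group. Without that library 6 of the 47 genes were called higher and 19 lower, beside 4232 higher and 3025 lower of all 11188 tested genes. In bulk RNA, a change in the RNA of each cell and a change in the mix of cells cannot be told apart.

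A gene was called changed when its adjusted p was under 0.05 in limma, fitted to log2(normalized reads + 1) over all 11201 genes with a mean of 10 or more. All 47 genes passed that filter, with means from 41.7 to 16008 normalized reads. In NUR77 cells 5 of them were called higher and 19 lower, and 23 were not called. Over all tested genes 38.4% were called higher and 28.3% lower, 66.7% in all, whereas the 47 genes gave 10.6% higher and 40.4% lower, 51.1% in all. Their median log2 fold change was -0.08, against 0.06 for all tested genes. The changes were small, since 44 of the 47 lay within 0.5 of no change on the log2 scale. The exceptions were Atpif1 at -0.99, Atp5k at -0.80 and Bcs1l at 0.53. With TMM scaling, which lowers every fold change by a like amount, 2 of the 47 were called higher and 25 lower, against 3606 higher and 3838 lower among all genes. When all 23154 genes were tested without the filter on low levels, 3696 were called higher and 2726 lower. Of the 47 genes 2 were then called higher and 9 lower. The 13 calls then lost were those of Uqcr10, Uqcr11, Cox5a, Cox5b, Cox6a1, Cox6b1, Cox7a2, Cox7c, Cox10, Atp5c1, Atp5e, Atp5g3 and Atpaf1 (limma adjusted p of 0.05004 to 0.23). The 3 NUR77 values did not overlap the 3 GFP values for 25 of the 47 genes (53.2%), against 70.6% of all tested genes.

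**Figure D1:**
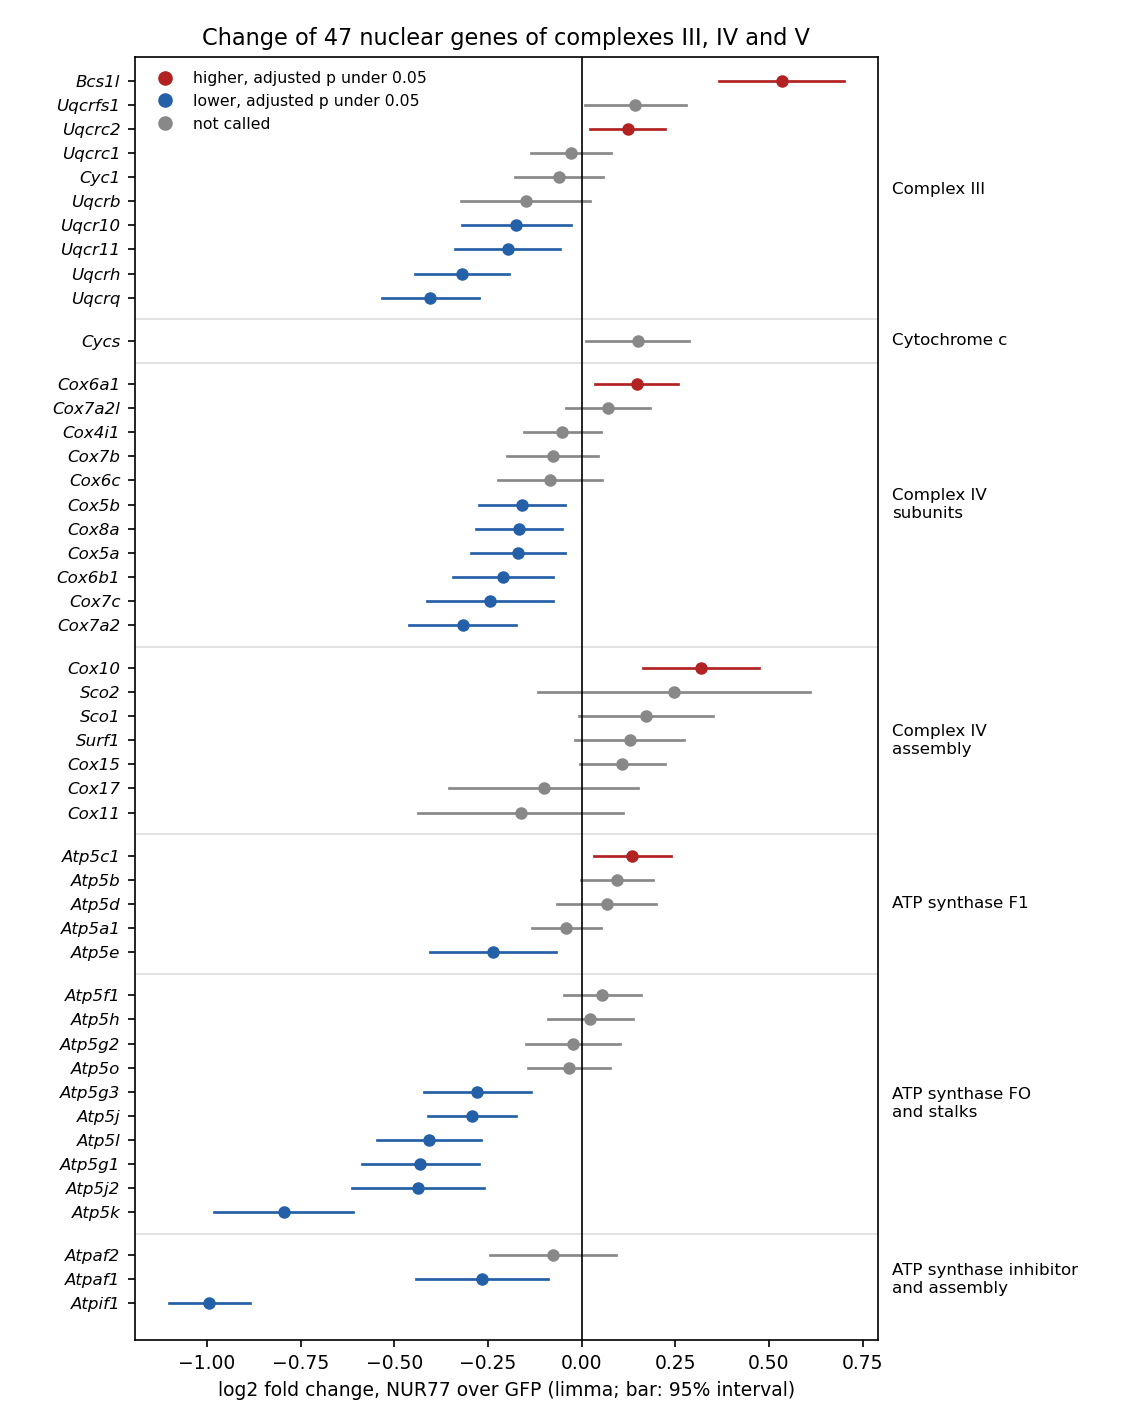
Log2 fold change, NUR77 over GFP, of each of the 47 genes, arranged by complex and role; points are limma estimates and bars their 95% intervals. Atpif1 at -0.99 and Atp5k at -0.80 lie farthest to the left, and Bcs1l at 0.53 farthest to the right.

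Promoter sequences were read from RefSeq tables of the GRCm38.p6 build, as windows of 250 bases before to 50 bases after each annotated start, and 39 of the 47 genes had at least 1, with 43 windows in all. Shares count genes with the letters in any of their windows. Each window was searched on both strands for the core letters that known respiratory-gene regulators bind. NRF1, a factor of many respiratory genes, binds GCGCA and GCGC separated by any single base, and these letters were found for 9 of the 39 genes (23.1%), against 5.19% of 27025 genes with a window. The ETS core CCGGAAGT, bound by the GABP factor, was found for 7 genes (17.9%, against 4.31%). The YY1 core AAGATGGC was found for 5 genes (12.8%, against 3.19%). The NR4A monomer element NBRE, AAAGGTCA, was found for 0 of the 39 genes, against 1.7% of all genes with a window. At so low a share, 39 genes are too few for 0 to be read as a lack. The oestrogen-related receptor element TCAAGGTCA, which shares the letters AAGGTCA with the NBRE, was found for 1 gene, Atp5g3 (2.56%, against 0.466%). By call, the NRF1 letters were found for 2 higher, 3 lower and 4 uncalled genes, the ETS core in 2, 3 and 2, and the YY1 core in 1, 2 and 2. These are counts and not shares, since 5 of the 47 were higher, 19 lower and 23 uncalled. No window was found for Uqcrc2 (higher), Uqcrq (lower) and the uncalled Uqcrb, Cyc1, Cox4i1, Cox6c, Cox17 and Atp5a1. A match describes the letters of a window and not a bound site, and a window without a match lacks only those letters.

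Of the 10 genes of complex III, 2 were called higher (38.4% over all tested genes), 4 lower (28.3%) and 4 not called. Their median log2 fold change was -0.10. The genes called lower were all small subunits, Uqcrq, Uqcrh, Uqcr11 and Uqcr10. The core subunit Uqcrc2 and the assembly factor Bcs1l were higher. The subunits summed with Bcs1l to 11012 ± 274 normalized reads in NUR77 cells and 11438 ± 249 in GFP cells (SD, n = 3 each), and the groups overlapped.

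Bcs1l (ENSMUSG00000026172, chromosome 1, 74588289 to 74592443, plus strand, GRCm38) encodes the AAA-family translocase that inserts the Rieske iron-sulphur protein into complex III. It was at 252, 264 and 269 normalized reads in NUR77 libraries, against 182, 183 and 176 in GFP libraries. Every NUR77 value lay above every GFP value, and the log2 fold change was 0.53 with an SE of 0.08 (limma adjusted p = 1.4e-05), or 1.45-fold. It remained called after each of the 6 libraries was left out in turn. The 150 bases before its start (chr1:74588139-74588288, GRCm38.p6, plus strand) are shown because it is the gene of the 47 that rose most, with the ETS core in capitals.
Bcs1l: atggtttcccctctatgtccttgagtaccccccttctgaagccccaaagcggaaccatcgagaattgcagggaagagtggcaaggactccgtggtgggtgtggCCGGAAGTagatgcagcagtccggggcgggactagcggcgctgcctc

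Uqcrq, a small subunit next to cytochrome b, was at 806, 923 and 937 normalized reads in NUR77 libraries, against 1177, 1159 and 1185 in GFP libraries. Uqcrh, the acidic hinge protein near the cytochrome c contact, was at 1093, 1125 and 1053 in NUR77 libraries, against 1418, 1251 and 1418 in GFP libraries. In neither gene did the groups overlap. The log2 fold changes were -0.40 for Uqcrq (limma adjusted p = 1.8e-05) and -0.32 for Uqcrh (limma adjusted p = 0.00015), and neither call was lost when any 1 library was left out.

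The other called genes of complex III differed by less. Uqcr11, at 424, 454 and 439 normalized reads in NUR77 libraries against 519.8, 468 and 524 in GFP libraries, was lower by a narrow margin (log2 fold change -0.20, limma adjusted p = 0.015). Uqcr10 was at 496, 530.1 and 467 in NUR77 libraries, against 586, 519 and 582 in GFP libraries. Its groups overlapped at GFP replicate 2 (log2 fold change -0.17, limma adjusted p = 0.034). Uqcrc2, a core protein, was at 2651, 2642 and 2699 in NUR77 libraries, against 2459, 2505 and 2378 in GFP libraries, and its groups did not overlap (log2 fold change 0.12, limma adjusted p = 0.03). With TMM scaling the Uqcrc2 call was lost (log2 fold change 0.05, limma adjusted p = 0.39). Leaving out 1 library also ended these calls. The Uqcr11 call was lost without GFP replicate 1 (limma adjusted p = 0.059) or 3 (0.081). The Uqcr10 call was lost without NUR77 replicate 1 (limma adjusted p = 0.059) or 3 (0.13), and without GFP replicate 1 (0.13) or 3 (0.13). The Uqcrc2 call was lost without NUR77 replicate 2 (limma adjusted p = 0.056) or 3 (0.062), and without GFP replicate 1 (0.059) or 3 (0.15).

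The electron-carrying subunits Cyc1 and Uqcrfs1 and the core protein Uqcrc1 were not called. Uqcrc1, the partner core protein, was at 2105, 2302 and 2129 normalized reads in NUR77 libraries, against 2207, 2225 and 2223 in GFP libraries. Cyc1, which carries the haem of cytochrome c1, was at 1367, 1467 and 1294 in NUR77 libraries, against 1416, 1423 and 1459 in GFP libraries. Both genes had overlapping groups and log2 fold changes of -0.03 and -0.06, and Cyc1 passed as lower with TMM scaling (limma adjusted p = 0.045). Uqcrfs1, the Rieske protein itself and the client of Bcs1l, was at 1163, 1183 and 1108 in NUR77 libraries, against 1137, 949.8 and 1048 in GFP libraries. Its log2 fold change was 0.14, with a 95% interval of 0.01 to 0.28 and a limma adjusted p of 0.056. It passed the threshold without GFP replicate 1 (limma adjusted p = 0.012), without NUR77 replicate 3 (0.04) or with the replicate number as a block (0.045). Uqcrb, another small subunit, had a log2 fold change of -0.15 (limma adjusted p = 0.12), and it passed without NUR77 replicate 1 (limma adjusted p = 0.0059), with TMM scaling (0.023) and with median-of-ratios scaling (0.036).

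Cycs encodes somatic cytochrome c, the soluble electron carrier between complexes III and IV. It was at 768, 777 and 669.9 normalized reads in NUR77 libraries, against 665, 641 and 686 in GFP libraries. NUR77 replicate 3 lay within the GFP range. Its log2 fold change was 0.15, with a 95% interval of 0.01 to 0.29, and it was not called (limma adjusted p = 0.051). Without NUR77 replicate 3 it passed (log2 fold change 0.22, limma adjusted p = 0.0053). Processed copies of Cycs exist in the genome, so its level is uncertain, although the 3 copies in the table together held 0.298 normalized reads in NUR77 cells and 0.659 in GFP cells.

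Among the 11 complex IV subunits, 6 were called lower (28.3% over all tested genes), 1 higher (38.4%) and 4 not called. Their median log2 fold change was -0.16. Their reads summed to 13305 ± 301 in NUR77 cells and 14116 ± 397 in GFP cells (SD, n = 3 each), a ratio of 0.943. The groups stayed apart by a narrow margin, with the highest NUR77 sum at 13612 and the lowest GFP sum at 13660. The lower genes were Cox7a2, Cox7c, Cox6b1, Cox5a, Cox8a and Cox5b, which surround the catalytic core encoded by mitochondrial DNA, and Cox6a1 was higher.

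Cox7a2 was at 709.9, 732 and 645 normalized reads in NUR77 libraries, against 886, 793 and 924 in GFP libraries. The groups did not overlap, and its fall was the largest of these subunits (log2 fold change -0.32, SE 0.07, limma adjusted p = 0.00053). Cox6b1, which faces the intermembrane space, was at 1286, 1261 and 1099 in NUR77 libraries, against 1442, 1330.2 and 1441 in GFP libraries (log2 fold change -0.21, limma adjusted p = 0.0074). These were the calls among the subunits of complex IV that no single library ended. Cox7c, at 266, 295 and 283 in NUR77 libraries against 347, 301 and 353 in GFP libraries, had groups that came close at NUR77 replicate 2 and GFP replicate 2 (log2 fold change -0.24, limma adjusted p = 0.013).

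Cox5a and Cox5b encode matrix-side subunits, and Cox8a a small membrane subunit. Cox5a was at 1501, 1302 and 1305 normalized reads in NUR77 libraries, against 1540.0, 1511 and 1559 in GFP libraries. Cox5b was at 866, 883 and 827 in NUR77 libraries, against 934, 996 and 947 in GFP libraries. All 3 NUR77 values lay below all 3 GFP values in both genes, with log2 fold changes of -0.17 and -0.16 (limma adjusted p = 0.018 and 0.017). Cox8a was at 846, 918 and 878 in NUR77 libraries, against 1003, 967 and 998 in GFP libraries, also without overlap (log2 fold change -0.17, limma adjusted p = 0.012). Cox6a1, the isoform of most tissues, averaged 1209 ± 34 in NUR77 cells and 1092 ± 34.1 in GFP cells (SD, n = 3 each; log2 fold change 0.15, limma adjusted p = 0.02). With TMM scaling its call was lost (limma adjusted p = 0.24).

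Single libraries decided several of these calls. The Cox7c call was lost without GFP replicate 1 (limma adjusted p = 0.054) or 3 (0.076), and the Cox8a call without GFP replicate 3 (0.0502). The Cox5a call was lost without NUR77 replicate 2 (limma adjusted p = 0.092) or 3 (0.066), and without GFP replicate 3 (0.071). The Cox5b call was lost without NUR77 replicate 3 (limma adjusted p = 0.057) or GFP replicate 2 (0.074). The Cox6a1 call was lost without NUR77 replicate 2 (limma adjusted p = 0.082) or GFP replicate 1 (0.086).

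The 4 uncalled subunits were Cox4i1, Cox7a2l, Cox7b and Cox6c. Cox4i1, the regulatory subunit that binds nucleotides, was at 3275, 3108 and 3104 normalized reads in NUR77 libraries, against 3351, 3182 and 3295 in GFP libraries (log2 fold change -0.05, 95% interval -0.15 to 0.05). Cox7a2l, which takes part in joining complexes III and IV into a supercomplex, was at 1673, 1691 and 1851 in NUR77 libraries, against 1688, 1625 and 1651 in GFP libraries (log2 fold change 0.07, 95% interval -0.04 to 0.18). Cox7b was at 1228, 1137 and 1147 in NUR77 libraries, against 1257, 1156 and 1294 in GFP libraries (log2 fold change -0.08, 95% interval -0.20 to 0.04). The groups overlapped in all 3. Cox6c had a log2 fold change of -0.09 (limma adjusted p = 0.27). Cox4i1, Cox7b and Cox6c passed the threshold as lower with TMM scaling, with limma adjusted p of 0.034, 0.029 and 0.041.

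The 7 assembly factors of complex IV showed 1 call, Cox10, which was higher, where 38.4% of all tested genes were higher and 28.3% lower. Their median log2 fold change was 0.13. They summed to 2213 ± 42.8 normalized reads in NUR77 cells and 2006 ± 20.4 in GFP cells (SD, n = 3 each), a ratio of 1.10, without overlap between the groups. Cox10 (ENSMUSG00000042148, chromosome 11, 63962627 to 64079468, minus strand, GRCm38) makes haem O, the first step from haem B to the haem A of complex IV. It was at 448, 511 and 481 normalized reads in NUR77 libraries, against 353, 409 and 392 in GFP libraries. The groups did not overlap (log2 fold change 0.32, SE 0.07, limma adjusted p = 0.001), and the call held without any 1 library and with TMM scaling (limma adjusted p = 0.0071). It was narrowly lost when no filter on low levels was used (limma adjusted p = 0.05004). The 150 bases before its start (chr11:64079473-64079622, GRCm38.p6, minus strand) hold the ETS core, in capitals, and are shown for comparison with Bcs1l, the other assembly factor called higher.
Cox10: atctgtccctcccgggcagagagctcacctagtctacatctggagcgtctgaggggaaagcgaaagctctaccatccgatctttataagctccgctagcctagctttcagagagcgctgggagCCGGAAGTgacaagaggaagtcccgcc

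Cox15, which converts haem O to haem A, was at 890.2, 946 and 879.9 normalized reads in NUR77 libraries, against 837, 833 and 848 in GFP libraries. Sco1, a copper chaperone, was at 204, 196 and 192 in NUR77 libraries, against 167, 180.2 and 177 in GFP libraries. In both genes every NUR77 value exceeded every GFP value, yet neither was called (log2 fold changes 0.11 and 0.17, limma adjusted p = 0.085 and 0.082). Surf1, which takes part in haem insertion, was at 380.4, 391 and 396 in NUR77 libraries, against 382, 345 and 342 in GFP libraries, and the groups overlapped at GFP replicate 1. Its log2 fold change was 0.13 (limma adjusted p = 0.11), and without that library it was called (limma adjusted p = 0.048). The copper chaperones Sco2, Cox11 and Cox17 had the fewest reads of the 7, with log2 fold changes of 0.25, -0.16 and -0.10 and limma adjusted p of 0.21 to 0.47. Sco2 shares exon bases with Ncaph2 on the opposite strand and with Tymp on its own, so its level is uncertain.

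The ATP synthase had 1 of its 18 genes called higher, 9 called lower and 8 not called, with a median log2 fold change of -0.16. The soluble F1 head had 1 of 5 genes higher and 1 lower. The membrane FO sector and stalks had 6 of 10 lower and none higher at this threshold, and 2 of the 3 inhibitor and assembly genes were lower. These counts stand beside 38.4% higher and 28.3% lower over all tested genes. The sum of all 18 was 43967 ± 1066 normalized reads in NUR77 cells and 45218 ± 209 in GFP cells (SD, n = 3 each), with overlapping groups. Most of it was held by Atp5b and Atp5a1. The sum also includes the inhibitor Atpif1, which averaged 1296 in NUR77 cells and 2580 in GFP cells. That difference is about as large as the difference between the 18-gene sums.

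Atpif1 (ENSMUSG00000054428, chromosome 4, 132530555 to 132533659, minus strand, GRCm38) showed the largest change of the 47 genes. It encodes the inhibitory factor that blocks ATP hydrolysis by the ATP synthase when the proton gradient collapses. It was at 1269, 1369 and 1251 normalized reads in NUR77 libraries, against 2587, 2589.5 and 2565 in GFP libraries. All 3 NUR77 values lay far below the GFP values, and the fitted level was 0.502 of that in GFP cells (log2 fold change -0.99, SE 0.05, 95% interval -1.10 to -0.89, limma adjusted p = 2.5e-11). The 24 nearest tested genes on the chromosome had a median log2 fold change of -0.04. No near-identical copy was found among annotated transcripts. Gm12999, an annotated antisense gene over the Atpif1 exons, held 0.265 normalized reads in NUR77 cells and 1.75 in GFP cells. Atp5k (ENSMUSG00000050856, chromosome 5, 108433244 to 108434448, minus strand, GRCm38) encodes subunit e, which joins ATP synthase dimers at the inner membrane. It was at 306, 259.9 and 252 normalized reads in NUR77 libraries, against 482, 424 and 516 in GFP libraries. The groups were well apart (log2 fold change -0.80, SE 0.09, limma adjusted p = 5.3e-07). A processed copy, Atp5k-ps2, makes the level uncertain in principle, and it held 0.232 normalized reads in NUR77 cells and 0 in GFP cells. Both calls remained with each library left out and with TMM scaling. The 150 bases before the RefSeq starts of the 2 genes that fell most are shown with the NRF1 letters in capitals (Atpif1 at chr4:132535415-132535564 and Atp5k at chr5:108434400-108434549, GRCm38.p6, both minus strand). These RefSeq starts differ from the gene ends given above, since the Atpif1 window lies wholly upstream of the GENCODE gene, apart from it, and the Atp5k window overlaps the GENCODE gene in part.
Atpif1: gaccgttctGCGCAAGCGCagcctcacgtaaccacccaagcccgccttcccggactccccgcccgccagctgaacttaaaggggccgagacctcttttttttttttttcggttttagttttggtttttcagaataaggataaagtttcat
Atp5k: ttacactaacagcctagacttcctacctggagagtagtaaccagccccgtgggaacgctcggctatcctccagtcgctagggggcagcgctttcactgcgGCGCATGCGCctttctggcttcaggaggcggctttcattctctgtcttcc

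**Figure D2:**
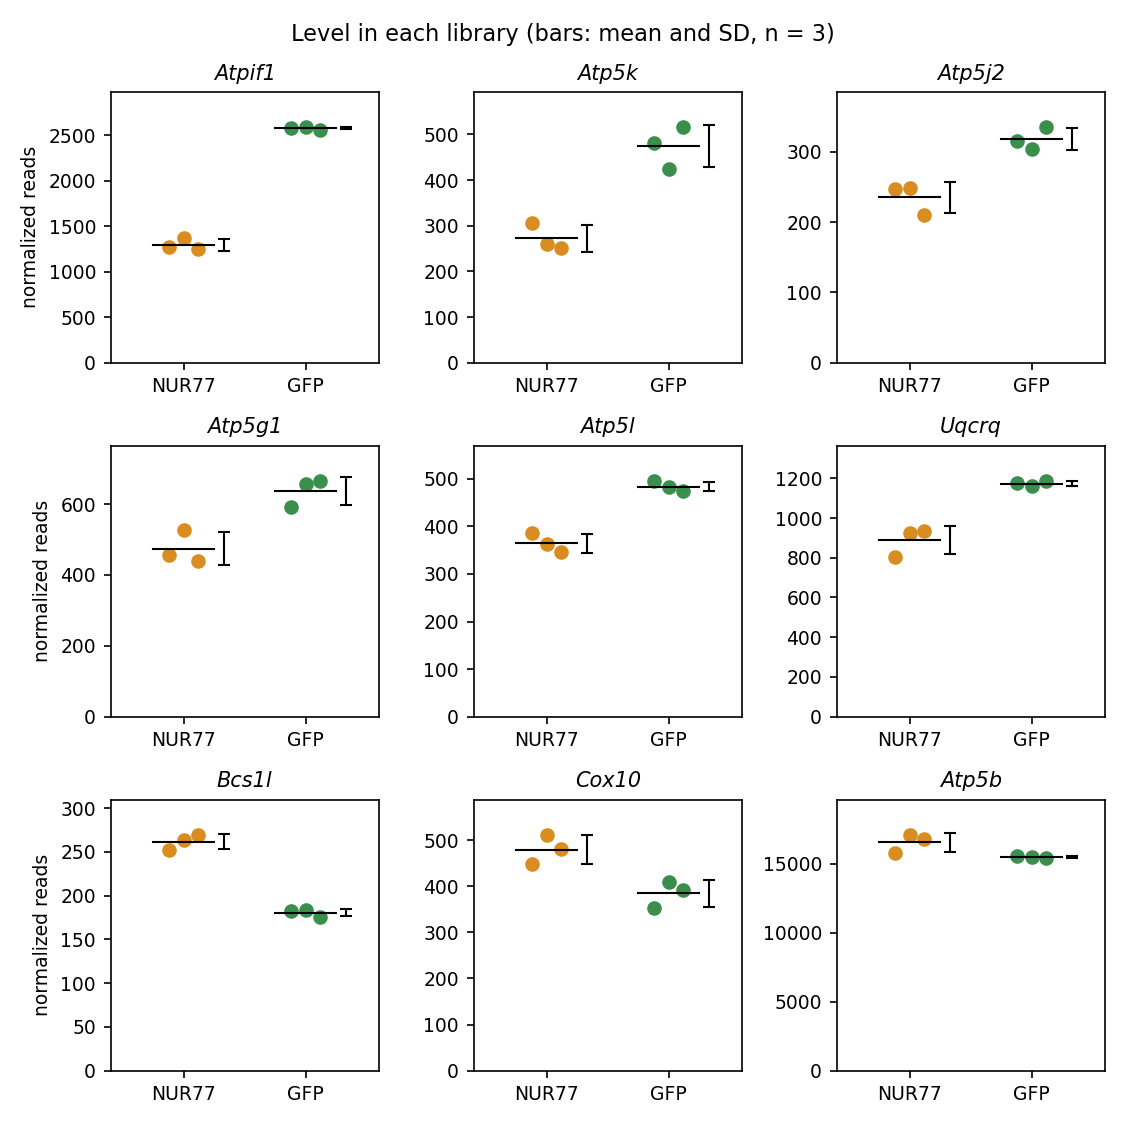
Normalized reads in each library for 9 of the 47 genes, with NUR77 to the left and GFP to the right in each panel, from a baseline of 0; lines are means and bars SD, with n = 3 per group. Atpif1 averaged 1296 in NUR77 cells against 2580.3 in GFP cells, Bcs1l 262 against 180.3, and Atp5b 16538 against 15479.

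In the F1 head, the catalytic β subunit Atp5b was the most abundant transcript of the 47. It was at 15786, 17059 and 16769 normalized reads in NUR77 libraries, against 15572, 15476 and 15389.7 in GFP libraries. The groups did not overlap, yet the difference was small and not called (log2 fold change 0.09, limma adjusted p = 0.077). Without NUR77 replicate 1 it was called (limma adjusted p = 0.02). Atp5a1, the α subunit, was at 11157, 11499.6 and 11002 in NUR77 libraries, against 11454, 11654 and 11501 in GFP libraries. NUR77 replicate 2 lay within the GFP range (log2 fold change -0.04, limma adjusted p = 0.43, or 0.036 with TMM scaling). Atp5d, the δ subunit of the central stalk, was at 1316, 1578 and 1501 in NUR77 libraries, against 1377, 1367 and 1442 in GFP libraries. Its NUR77 values spread on both sides of the GFP range (log2 fold change 0.07, limma adjusted p = 0.36), and without NUR77 replicate 1 it was called higher (limma adjusted p = 0.031).

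Atp5c1, the rotating γ subunit, was at 3085, 2976 and 2882 normalized reads in NUR77 libraries, against 2782, 2688 and 2671 in GFP libraries. It was called higher without overlap (log2 fold change 0.14, limma adjusted p = 0.021), but not with TMM scaling (limma adjusted p = 0.29). Atp5e, the ε subunit bound to γ, was at 594, 571 and 592 in NUR77 libraries, against 736, 590.1 and 755 in GFP libraries. GFP replicate 2 lay within the NUR77 range, and the gene was called lower (log2 fold change -0.24, limma adjusted p = 0.015). The Atp5c1 call was lost without NUR77 replicate 1 (limma adjusted p = 0.059) or 2 (0.051), and without GFP replicate 2 (0.053) or 3 (0.092). The Atp5e call was lost without NUR77 replicate 2 (limma adjusted p = 0.06), and without GFP replicate 1 (0.077) or 3 (0.1).

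The FO sector holds the proton channel and the stalks that keep the head from turning. Besides Atp5k, the small membrane subunits f (Atp5j2) and g (Atp5l) were lower. Atp5j2 was at 246, 249 and 210.0 normalized reads in NUR77 libraries, against 315, 304 and 335 in GFP libraries (log2 fold change -0.44, limma adjusted p = 0.00019). Atp5l was at 386, 362 and 346 in NUR77 libraries, against 495, 482 and 475 in GFP libraries (log2 fold change -0.41, limma adjusted p = 3.6e-05). Neither gene had overlapping groups. Atp5l has 10 near-identical gene copies, and the 4 with a row together held 0.298 normalized reads in NUR77 cells and 0 in GFP cells. Atp5j, coupling factor 6 of the outer stalk, was at 879, 839 and 811 in NUR77 libraries, against 1076, 1004 and 1016 in GFP libraries, also without overlap (log2 fold change -0.29, limma adjusted p = 0.0002). Atp5j shares 397 exon bases with Gabpa on the opposite strand, and Gabpa did not pass the test (log2 fold change 0.03).

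The 3 genes Atp5g1, Atp5g2 and Atp5g3 encode the same mature protein, subunit c of the rotor ring, and differ in their transcripts and import signals. Atp5g1 was at 457, 527 and 438 normalized reads in NUR77 libraries, against 592, 657 and 664 in GFP libraries. Atp5g3 was at 994, 1071 and 909 in NUR77 libraries, against 1232, 1104 and 1269 in GFP libraries. Both were lower without overlap, with log2 fold changes of -0.43 (limma adjusted p = 7.1e-05) and -0.28 (limma adjusted p = 0.0016). Atp5g2 averaged 566 ± 25.1 in NUR77 cells and 575 ± 6.52 in GFP cells (SD, n = 3 each) and was not called, with a 95% interval of -0.15 to 0.10 around a log2 fold change of -0.02. The difference between these genes was not itself tested. Gm10039, a near-identical copy of Atp5g1, held 38 normalized reads in NUR77 cells and 50.1 in GFP cells, and how many shared reads were dropped is not known, so the Atp5g1 level is uncertain. The 150 bases before the RefSeq starts of the 3 genes are shown because they give one protein from 3 promoters (Atp5g1 at chr11:96075632-96075781, Atp5g2 at chr15:102671048-102671197 and Atp5g3 at chr2:73911327-73911476, GRCm38.p6, all minus strand). Capitals mark the NRF1 letters in Atp5g2 and the oestrogen-related receptor element, read on the opposite strand, in Atp5g3. The Atp5g3 window also held the NRF1 letters just past its start, beyond the bases shown, and Atp5g1 had none of the 5 motifs in its window. The Atp5g2 window lies inside the GENCODE gene, downstream of its outermost start, and the Atp5g1 window overlaps the GENCODE gene in part.
Atp5g1: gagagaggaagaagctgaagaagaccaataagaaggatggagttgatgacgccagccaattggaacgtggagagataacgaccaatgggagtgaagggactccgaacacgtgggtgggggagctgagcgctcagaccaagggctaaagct
Atp5g2: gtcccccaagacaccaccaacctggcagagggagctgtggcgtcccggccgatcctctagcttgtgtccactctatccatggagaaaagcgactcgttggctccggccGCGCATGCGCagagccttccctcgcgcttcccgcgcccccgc
Atp5g3: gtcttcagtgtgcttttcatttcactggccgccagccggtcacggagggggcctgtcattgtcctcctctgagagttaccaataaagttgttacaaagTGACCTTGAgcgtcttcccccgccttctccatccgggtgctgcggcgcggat

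The larger stalk subunits did not pass the test. Atp5f1, subunit b of the outer stalk, was at 3138, 3145 and 2983 normalized reads in NUR77 libraries, against 3028, 3018 and 2870.0 in GFP libraries (log2 fold change 0.06). Atp5o, which links the stalk to the head, was at 1466, 1583 and 1478 in NUR77 libraries, against 1519, 1537 and 1578 in GFP libraries (log2 fold change -0.03). Atp5h, subunit d, was at 1066, 1029.7 and 1014 in NUR77 libraries, against 1058, 986 and 1016 in GFP libraries (log2 fold change 0.02). The groups overlapped in each, and the 95% intervals reached no farther than -0.14 and 0.16.

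A pair of assembly factors chaperones the F1 head. Atpaf1, which binds β subunits, was at 209.8, 228 and 232 normalized reads in NUR77 libraries, against 271, 288 and 246 in GFP libraries. It was called lower without overlap (log2 fold change -0.27, limma adjusted p = 0.0099), and the call was lost without GFP replicate 2 (limma adjusted p = 0.055). Atpaf2, which binds α subunits, was at 251, 299 and 284 in NUR77 libraries, against 286, 288 and 303 in GFP libraries. Its groups overlapped and it was not called (log2 fold change -0.08, limma adjusted p = 0.41).

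**Figure D3:**
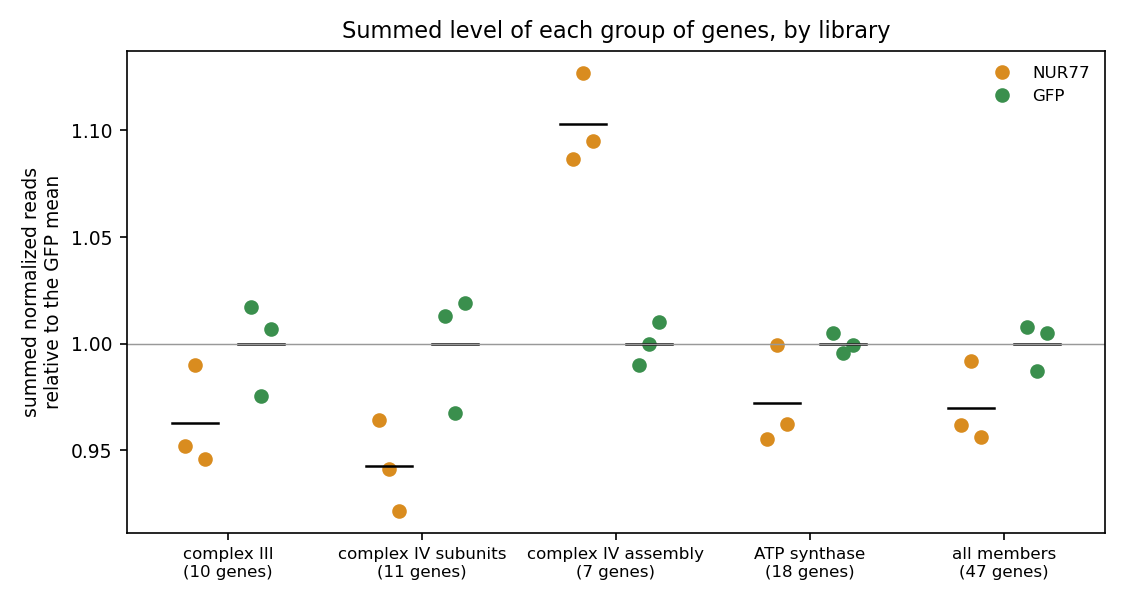
Summed normalized reads of each set of genes in each library, divided by the GFP mean of that set, with NUR77 left of GFP; the axis does not start at 0, and lines are group means of 3 libraries. Ratios of NUR77 to GFP means were 0.963 for complex III, 0.943 for complex IV subunits, 1.10 for complex IV assembly factors, 0.972 for the ATP synthase and 0.970 for all 47. The ATP synthase set includes the inhibitor Atpif1.

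All 47 genes together took 71235 ± 1403 normalized reads in NUR77 cells and 73443 ± 830.3 in GFP cells (SD, n = 3 each), or 0.712% and 0.734% of reads counted on genes, and the groups overlapped. Atpif1 held 1296 of these reads in NUR77 cells and 2580 in GFP cells. Taken by role across the complexes, the 10 assembly factors had 2 calls higher and 1 lower, with a median log2 fold change of 0.12. The other 37 genes had 3 higher and 18 lower, with a median of -0.15. These counts stand beside 38.4% higher and 28.3% lower over all tested genes.

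Levels can be compared between genes once divided by transcript length. Lengths were taken from the shortest principal GENCODE M21 transcript of best support, and other isoforms exist. In normalized reads per kb, Atp5b stood highest at 8631 in NUR77 cells and 8079 in GFP cells. In NUR77 cells Atp5a1 at 4540.5 and Cox4i1 at 4245 came next, followed by Atp5c1 at 2557 and Atpif1 at 2405. In GFP cells Atpif1 at 4787 lay second in that order, next to Atp5a1 at 4669 and Cox4i1 at 4397. Assembly factors stood at the low end. Sco2 was lowest at 39.5 per kb in NUR77 cells and 33.4 in GFP cells, and Cox11 next at 57.3 in NUR77 cells and 64.4 in GFP cells. Differences between neighbours in this order were not tested.

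**Figure D4:**
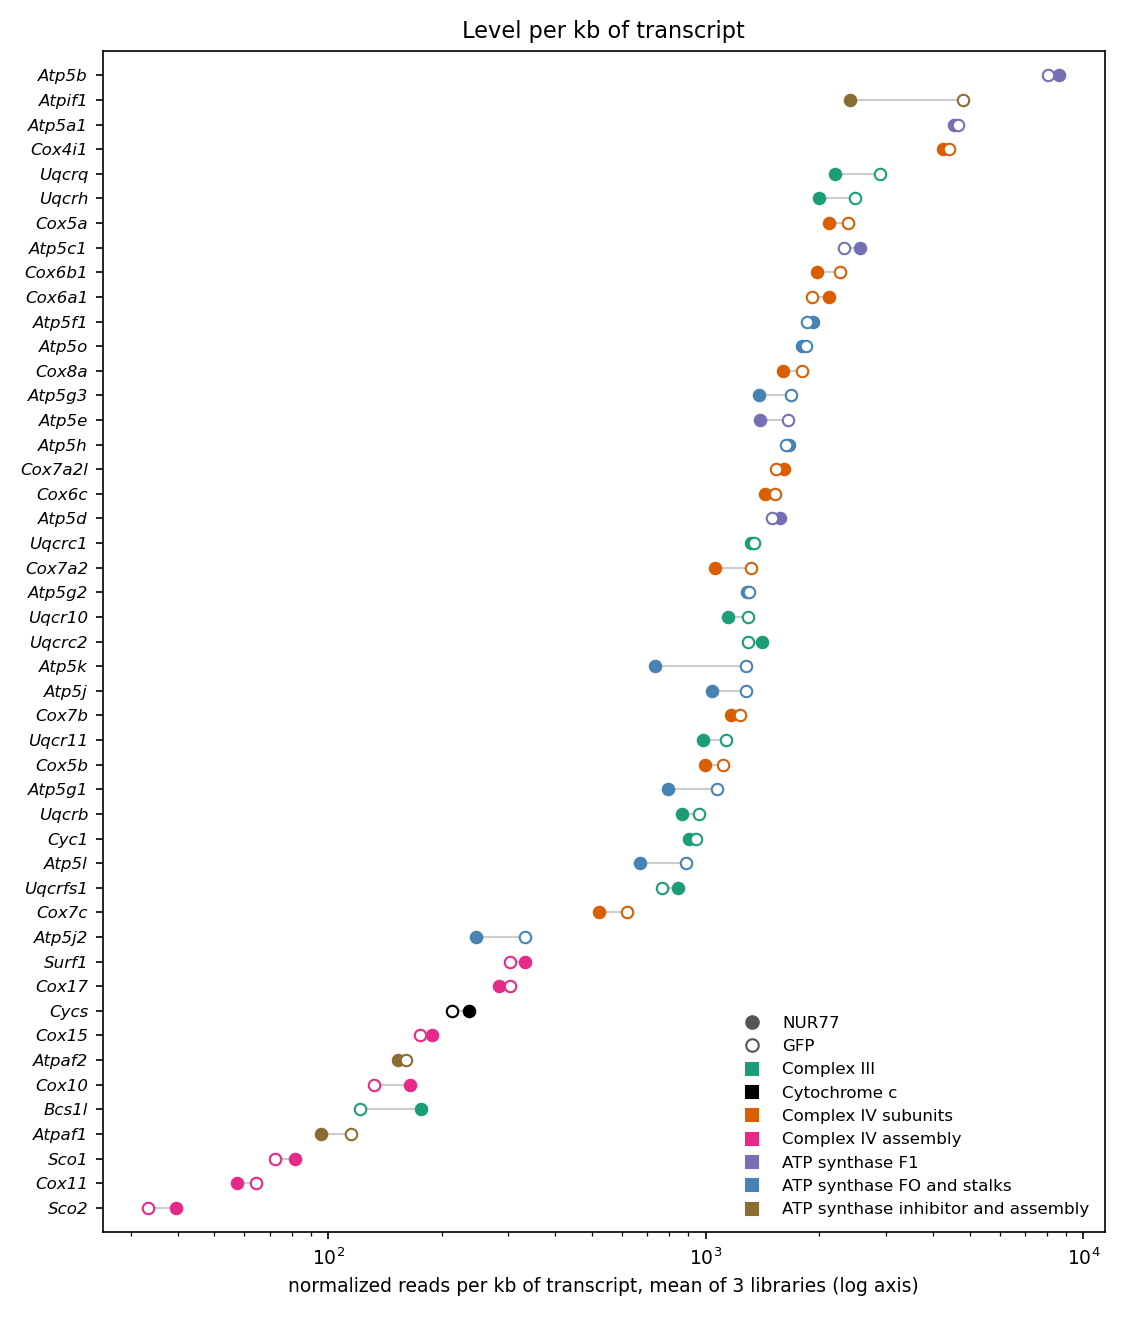
Mean level of each of the 47 genes in normalized reads per kb of transcript (log axis), filled circles for NUR77 cells and open circles for GFP cells, in the order of the GFP level. Atpif1 shows the widest gap, at 2405 in NUR77 cells and 4787 in GFP cells, and assembly factors lie at the low end.

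The genes called lower had mostly short transcripts. Of 27 members with a transcript under 1000 bp, 18 were lower and 1 higher, with a median log2 fold change of -0.20. Of 20 members with 1000 bp or more, 1 was lower and 4 were higher, with a median of 0.10. Over all tested genes under 1000 bp, 32.5% were lower and 22.4% higher, with a median of -0.06, and over those of 1000 bp or more, 28.0% were lower and 39.8% higher, with a median of 0.07. Across the 47 genes the log2 fold change and the log2 length had a Pearson r of 0.57 and a Spearman rho of 0.62. Without Atpif1 and Atp5k they were 0.56 and 0.58. Across 11142 tested genes with a length they were 0.018 and 0.080. These correlations run across genes of the same 6 libraries, which are not independent replicates. Each library's trend with transcript length over all genes was then removed. Among all 11201 tested genes 3633 were called lower and 3784 higher after that step. Of the 47 members 11 were called lower and 4 higher. Those still lower included Atpif1 (log2 fold change -0.88), Atp5k (-0.62), Atp5j2 (-0.40) and Atp5g1 (-0.33), and the calls of Uqcr10, Uqcr11, Cox5a, Cox5b, Cox6b1, Cox7c, Cox8a and Atp5e were lost (limma adjusted p of 0.1 to 0.74). The Uqcrc2 call was lost as well (limma adjusted p = 0.12). Short members also differed between libraries of the same group. The median difference of the 27 short members from the mean of the other 2 libraries was 0.030, 0.069 and -0.075 on the log2 scale in NUR77 replicates 1, 2 and 3. In GFP replicates 1, 2 and 3 it was 0.049, -0.063 and 0.064. For the 20 longer members it was -0.030, 0.050 and -0.018 in the NUR77 replicates in that order. In the GFP replicates it was 0.012, -0.0075 and 0.0081 for them. For all 852 tested genes under 1000 bp it was -0.028, 0.038 and 0.00064 in the NUR77 replicates. In the GFP replicates it was 0.042, -0.069 and 0.029 for those genes. The part of transcript length in the individual calls was not tested further.

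**Figure D5:**
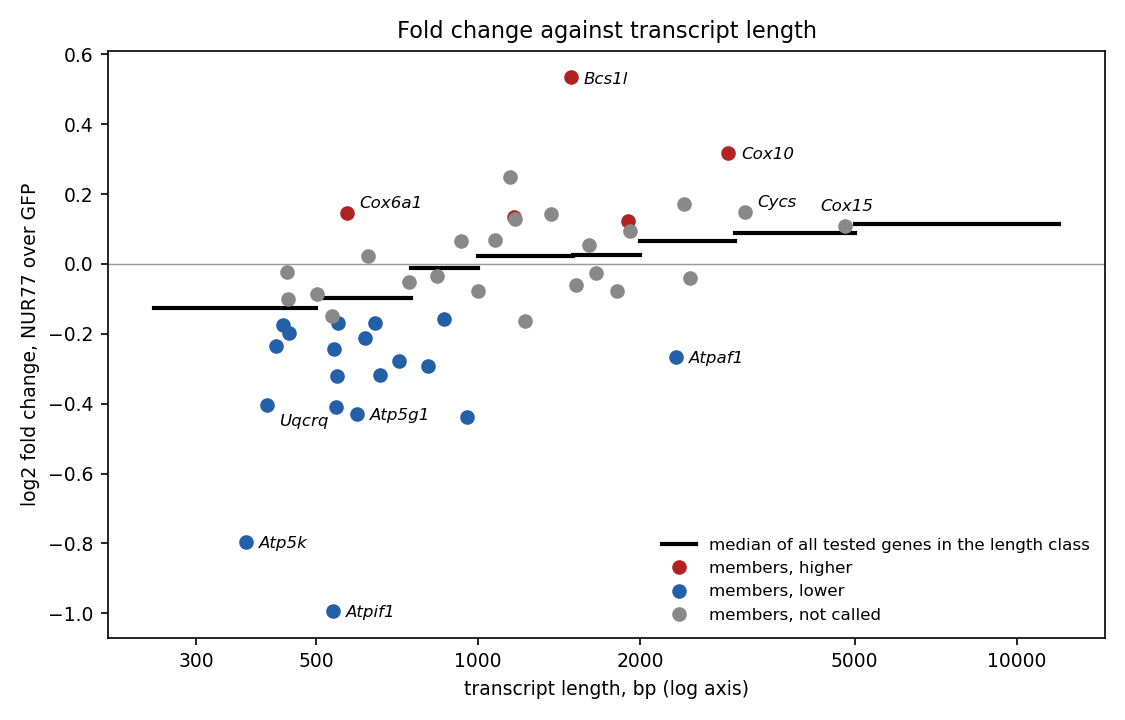
Log2 fold change, NUR77 over GFP, of the 47 genes against transcript length in bp (log axis), coloured by call; black lines are medians of all tested genes in each length class. The 18 lower genes under 1000 bp lie left of centre, and the black lines run from -0.13 in the shortest class to 0.11 in the longest.

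Position in the genome and related sequences were examined for the same genes. The median log2 fold change of the 24 tested genes nearest to each member lay between -0.12 and 0.23 for all 47. Near-identical copies, at 95% identity or more over at least 100 bp, were sought among annotated transcripts and not in the genome itself. They lay in genes elsewhere for 1 of the 5 higher (Atp5c1) and 6 of the 19 lower (Uqcr11, Cox7c, Atp5g1, Atp5k, Atp5l and Atpaf1). In all, 16 members had such copies. Levels of these genes are uncertain, because reads shared between copies may be dropped. Exon bases were shared with another annotated gene by 19 members, mostly on the opposite strand. Partners on the same strand were Tymp for Sco2, Gm21987 for Cox17, Mir688 for Atp5g2 and another entry named Atp5o for Atp5o. The levels of these members are uncertain, and whether the reads were counted by strand is not stated.

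Of the 3 tested partner subunits encoded by mitochondrial DNA, 2 were lower (28.3% over all tested genes) and 1 was not called. Cytochrome b of complex III, mt-Cytb, was at 33639, 31439 and 28325 normalized reads in NUR77 libraries, against 66479, 71419 and 68090.1 in GFP libraries, with no overlap. It was lower (log2 fold change -1.14, SE 0.06, limma adjusted p = 1.8e-11). Of the catalytic core of complex IV, mt-Co1 averaged 96999 ± 66.8 in NUR77 cells and 97482 ± 643 in GFP cells (SD, n = 3 each), and was not called, although its groups did not overlap (log2 fold change -0.01, limma adjusted p = 0.89). For the ATP synthase, mt-Atp8 was at 5698, 5644 and 5735 in NUR77 libraries, against 8634, 8961 and 8257 in GFP libraries, without overlap (log2 fold change -0.60, limma adjusted p = 6.7e-09). The remaining transcripts mt-Co2, mt-Co3 and mt-Atp6 averaged 3.74, 1.03 and 4.7 in NUR77 cells and 5.65, 1.08 and 7.72 in GFP cells, below the filter. The nuclear genome holds copies of mitochondrial DNA, so these levels are uncertain.

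Of the 3 tested tissue-restricted isoforms of complex IV subunits, 1 was higher (38.4% over all tested genes), 1 lower (28.3%) and 1 not called. Cox6a2, the heart and skeletal muscle counterpart of Cox6a1, was at 77.7, 80.1 and 108 normalized reads in NUR77 libraries, against 289.9, 276 and 275 in GFP libraries. It was lower without overlap (log2 fold change -1.67, SE 0.12, limma adjusted p = 1.6e-09). Cox4i2, the hypoxia-responsive lung counterpart of Cox4i1, was at 19.6, 18.8 and 19.1 in NUR77 libraries, against 4.18, 4.39 and 5.88 in GFP libraries, and was higher (log2 fold change 1.81, SE 0.29, limma adjusted p = 3e-05). Its mean was 12.0 over the 6 libraries but 4.82 in GFP cells, so it passed the filter only through the NUR77 group. Cox7a1 averaged 26 ± 7.32 in NUR77 cells and 19.1 ± 7.66 in GFP cells (SD, n = 3 each) and was not called (log2 fold change 0.46, limma adjusted p = 0.15), but passed without GFP replicate 1 (0.026). Cox6b2 and Cox8b had 0 reads in all 6 libraries, and Cox7b2 had 1 read, in a GFP library. Of the 18 skeletal muscle markers 4 passed the filter. Tnni2 was lower (log2 fold change -2.28), and the other 3 were not called. Acta1 was at 51.8, 12.5 and 8.75 in NUR77 libraries, against 9.76, 7.53 and 7.84 in GFP libraries, and passed as higher without NUR77 replicate 3 (limma adjusted p = 0.012). The part of such cells in the Cox6a2 result was not tested.

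Further assembly factors and subunits of the same complexes moved both ways. Of 5 other complex III assembly genes, 3 were higher and 1 lower. These were Lyrm7, the chaperone of the Rieske protein (log2 fold change 0.59), Ttc19 (0.46), Uqcc2 (0.39) and Uqcc3 (-0.61), whose call was lost without a filter (limma adjusted p = 0.074). Of 18 other tested complex IV genes, 3 were higher and 7 lower. Among them Cox20, which stabilises the newly made second core subunit, averaged 55.4 ± 2.74 normalized reads in NUR77 cells and 112 ± 2.95 in GFP cells (SD, n = 3 each; log2 fold change -1.001, limma adjusted p = 1.1e-06). Higd1a (log2 fold change 0.84), Pet100 (-0.83) and Cox16 (-0.78) were the next largest, and the Cox16 call was lost without a filter (limma adjusted p = 0.16). Of the 3 other tested ATP synthase genes, Atp5s (log2 fold change 0.54) and the assembly factor Tmem70 (0.40) were higher, and Usmg5 was not called (-0.02). The 36 nuclear subunits of complex I, the entry enzyme of the chain, had 3 calls higher and 12 lower, with a median log2 fold change of -0.10. Ndufb5 (log2 fold change -0.78), Ndufs8 (-0.57), Ndufb3 (-0.39) and Ndufb7 (-0.36) changed most. All these counts stand beside 38.4% higher and 28.3% lower over all tested genes.

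Of 8 tested regulators of respiratory genes, 5 were called higher, none lower and 3 were not called, beside 38.4% higher and 28.3% lower over all tested genes. Gabpb1, a subunit of the ETS factor GABP, averaged 428 ± 27.8 normalized reads in NUR77 cells and 341 ± 12.6 in GFP cells (SD, n = 3 each; log2 fold change 0.33, limma adjusted p = 0.00058), while its DNA-binding partner Gabpa did not pass (0.03, limma adjusted p = 0.64). Yy1 (log2 fold change 0.31), the coactivator Pprc1 (0.29), the oestrogen-related receptor Esrra (0.26) and the mitochondrial transcription factor Tfam (0.19) were higher. With TMM scaling the calls of Esrra (limma adjusted p = 0.054) and Tfam (0.13) were lost, and without a filter likewise (0.11 and 0.13). The Esrra call was also lost without NUR77 replicate 2 (limma adjusted p = 0.073). The Tfam call was lost without NUR77 replicate 1 (limma adjusted p = 0.056), NUR77 replicate 2 (0.056) or GFP replicate 1 (0.1), with median-of-ratios scaling (0.084) and with the length trend removed (0.18). Nrf1 (log2 fold change 0.09, limma adjusted p = 0.26) and the coactivator Ppargc1b (-0.17, limma adjusted p = 0.11) were not called. Ppargc1b passed as lower with TMM scaling (limma adjusted p = 0.026), median-of-ratios scaling (0.036) and the length trend removed (0.022). Ppargc1a, which encodes the coactivator PGC-1α, had 0 reads in the 3 NUR77 libraries and 17.4, 16.9 and 18.3 normalized reads in GFP libraries, 80 reads in all. It was at least 22.3-fold lower in NUR77 cells, taking 3 reads over the NUR77 group (0.787 normalized reads) as the limit that 0 reads allows. This limit covers counting error only, and the gene was below the filter on the mean and so was not tested.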

How the data were processed

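Poly(A) RNA from 3 NUR77 and 3 GFP dishes was sequenced with strand-specific libraries, per the labels' protocols. The authors deposited log2 values of normalized reads plus 1 for 23154 genes, in a table and in files per library that agreed exactly. TopHat2 2.1, HTSeq, DESeq2 and mm10 are listed, per the submitters' processing notes, and neither the strand setting nor the annotation is stated. Undoing the log gave whole reads for 100% of values within 0.1 read and a total of 10000000 per library, so equal totals scale every gene. GENCODE M21 named 22872 identifiers and left 282 unnamed.

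All 6 libraries were fitted with limma 3.58.1 (R 4.3.3), with trend and robust moderation, to log2(normalized reads + 1). Genes with a mean of 10 or more were tested, two-sided, with Benjamini-Hochberg adjustment over all of them and a threshold of 0.05. Fold changes are NUR77 over GFP on that scale, which understates changes of low genes. The fit was tested on simulated data. Copies were found with blastn 2.17.0 among GENCODE M21 transcripts, on the same strand only. Alternatives were pseudocounts 0.5 and 5, no filter and a mean of 50, TMM and median-of-ratios scaling, a replicate block, no trend, leaving out each library, limma-voom on recovered reads and removal of the length trend. In each role group, values per library were given for up to 6 called genes of largest change and 3 uncalled genes of highest mean. Of each further list, counts and up to 4 called genes were named, with all mitochondrial, isoform and regulator genes. Atp5g2, Cox6a1 and the remaining members were named by fold change or mean, and marker genes were named after their values were seen. Members and lists were chosen with earlier results of these data known.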

Additional observations from a re-analysis of the deposited data

How the results depend on the processing

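Of the 24 member calls, 13 held with each library left out in turn and 11 were lost at least once, while 6 uncalled members passed at least once. Leaving out 1 library gave 2 to 6 members called higher and 13 to 19 called lower. The fewest higher were 2 without NUR77 replicate 2 and 3 without GFP replicate 3. Over the 11169 to 11200 genes then tested, 3960 to 4232 were higher and 2788 to 3146 lower. No filter gave 2 higher and 9 lower, TMM scaling 2 and 25, median-of-ratios scaling 2 and 20, and limma without trend 4 and 16. Over all tested genes no filter gave 3696 higher and 2726 lower, and TMM scaling 3606 and 3838. Median-of-ratios scaling gave 3767 and 3660, and limma without trend 4107 and 3035. Without trend, the calls of Uqcrc2, Uqcr10, Cox5a, Atp5c1 and Atp5e were lost (limma adjusted p of 0.056 to 0.082) and Sco1 passed as higher (0.03). Limma-voom on recovered reads gave 6 and 19, and removing the length trend 4 and 11. Over all 11201 tested genes they gave 4331 higher and 3164 lower, and 3784 and 3633. These settings were chosen after seeing the data. Without a filter 23154 genes were tested and the moderation was fitted over all of them. The cause of the changed counts was not tested for any setting. The 2 pseudocounts and the filter at 50 left all member counts at 5 and 19. Over the 9838 to 11201 genes then tested, 3886 to 4315 were higher and 2794 to 3184 lower. Ratios of summed levels, NUR77 over GFP, with TMM and median-of-ratios scaling were 0.915 and 0.925 for complex III, 0.895 and 0.906 for complex IV subunits, 1.05 and 1.06 for complex IV assembly, 0.924 and 0.935 for the ATP synthase, and 0.921 and 0.932 for all members. Of 80 genes compared across settings, the 47 members and 33 others, 11 changed the sign of their log2 fold change. None of these 11 was called in the main fit. Cox4i1 and Cox6c passed as lower with TMM scaling (limma adjusted p = 0.034 and 0.041), and Atp5d as higher without NUR77 replicate 1 (0.031). With TMM scaling the genes that changed sign were Cox7a2l (-0.0043), Atp5d (-0.0074), Atp5f1 (-0.019), Atp5h (-0.050) and Gabpa (-0.045). With median-of-ratios scaling they were Atp5f1 (-0.0017), Atp5h (-0.033) and Gabpa (-0.028). With the length trend removed they were Cox4i1 (0.022), Cox6c (0.043), Cox17 (0.044), Atp5g2 (0.12), Atp5o (0.022), Usmg5 (0.15) and Gabpa (-0.021). With each library left out, the log2 fold change ranged from -0.22 to 0.026 for Cox17 and from -0.048 to 0.013 for Atp5g2, both highest without NUR77 replicate 2. It ranged from -0.00044 to 0.051 for Atp5h, lowest without GFP replicate 2, and from -0.011 to 0.052 for Gabpa, lowest without NUR77 replicate 1. For Usmg5 it ranged from -0.11 to 0.058, highest without NUR77 replicate 3. Replicate numbers are shared by the groups, but deviations of same-numbered libraries correlated at 0.0016, 0.11 and 0.045 for numbers 1, 2 and 3, and NUR77 replicates 1 and 3 correlated best with another number, so the numbers were not taken as pairs. With the replicate block 7585 of 11201 genes were called, 4365 higher and 3220 lower. Of the members 6 were then higher and 19 lower. The planned count tests of edgeR and DESeq2 on recovered reads were not run, because the deposited unit is log2. Depth limits Sco2, the lowest member, whose 95% interval ran from -0.12 to 0.61.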
